A study of Sus scrofa with 207 samples.

Results

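The fast fibre contractile genes of skeletal muscle were followed in 207 pigs. The set was defined as 9 genes, MYH1, MYH2, MYL1, MYLPF, TNNI2, TNNT3, TNNC2, ACTN3 and PVALB, and its members were the probe sets whose only gene symbol in the array annotation was one of these. This gave 6 probe sets of 23935, 1 each for MYH2, MYL1, MYLPF, TNNT3, TNNI2 and TNNC2, so 6 of the 9 genes were measured. MYH1, ACTN3 and PVALB were not analysed here. The rule itself reads only the annotation, but the genes were listed with earlier results of these data known.

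Skeletal muscle fibres contract when myosin heavy chains, each carrying light chains, pull on actin filaments. Calcium starts the contraction by binding the troponin complex on the actin filament. Fast fibres and slow fibres build this machinery from separate genes, and the fast set dominates in fibres that run on glycogen and glycolysis. Pig longissimus muscle, on which both traits below were measured, is known as a mainly fast, glycolytic muscle. The labels give the sampled tissue only as muscle. Of the measured members, MYH2 encodes the fast type IIa myosin heavy chain. MYL1 is the fast alkali light chain, and MYLPF the fast regulatory light chain that can be phosphorylated. TNNC2 is the calcium-binding subunit of fast troponin, TNNI2 its inhibitory subunit and TNNT3 the subunit that holds the complex on tropomyosin.

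The muscle was taken at slaughter from commercial pigs of the cross Pix(DLxDE), at a mean end weight of 110 kg, with 1 Affymetrix Porcine Genome Array per animal. All 207 animals form a single group. The labels give 2 traits for each animal and no sex, age, sire or treatment. Drip loss, the share of weight that a piece of longissimus muscle loses as fluid when hung in the cold, was 5.37 ± 2.22% (SD, n = 207) and ranged from 1.45 to 10.82%. The fat area over the longissimus muscle ranged from 8.1 to 26.7 cm2 with a median of 14.5 cm2 and an SD of 3.15 cm2 (n = 207 less 8 animals without a value). Array medians ran from 5.96 to 6.18 on the log2 scale. The expression values of 24 arrays matched those of the remaining arrays poorly. Their median correlation lay more than 3 scaled median absolute deviations below that of all arrays, and these are called low-correlation arrays from here on. On 13 arrays the spike-in control signal was missing. The numbers in the sample titles form a lower series and a higher one that holds 33 animals, and fall into 10 blocks of 100 numbers. Every p-value rests on the spread between animals, and with 1 array per animal this includes differences between arrays. The limma p-values below also draw on the variance of all probe sets.

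In the reference annotation Sscrofa11.1, MYH2 (Entrez gene 397256) lies on chromosome 12 next to MYH1, MYL1 (397666) on chromosome 15, MYLPF (474162) on chromosome 3 and TNNC2 (414905) on chromosome 17. TNNI2 (606751) and TNNT3 (414906) are near neighbours on chromosome 2, with 2 protein-coding genes between them, LSP1 among them. The myosin heavy chain genes beside MYH2 are close in sequence, and whether its probe set also reads them was not tested.

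All 6 members gave signals near the top of the array's scale, and they varied less between animals than nearly any other probe set. Values are the deposited log2 expression values. MYH2 ranged from 13.94 to 14.24 with a median of 14.15, and its SD was 0.049 (n = 207). MYL1 ranged from 13.92 to 14.13 with a median of 14.01 (SD 0.033, n = 207), which was the smallest SD of all 23935 probe sets. MYLPF ranged from 13.68 to 14.15 with a median of 13.83 (SD 0.068, n = 207). The light chain MYLPF was thus the most variable member, although its lowest and highest animals still differed by only 1.39-fold. TNNT3 ranged from 13.84 to 14.10 with a median of 13.97 (SD 0.040, n = 207). TNNI2 ranged from 13.51 to 13.81 with a median of 13.64 (SD 0.052, n = 207). TNNC2 ranged from 13.58 to 13.90 with a median of 13.67 (SD 0.054, n = 207). The lowest and highest animals differed by 1.16-fold for MYL1, 1.20-fold for TNNT3, 1.23-fold for MYH2 and TNNI2, and 1.25-fold for TNNC2. No member separated the animals into groups, and every member in every animal lay within 0.5 log2 units of that member's own highest value. For MYH2, 50.7% of the animals lay within 0.1 of it, against 22.2% for MYL1, 14.0% for TNNT3, 6.3% for TNNI2, 1.9% for TNNC2 and 1.0% for MYLPF.

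**Figure D1:**
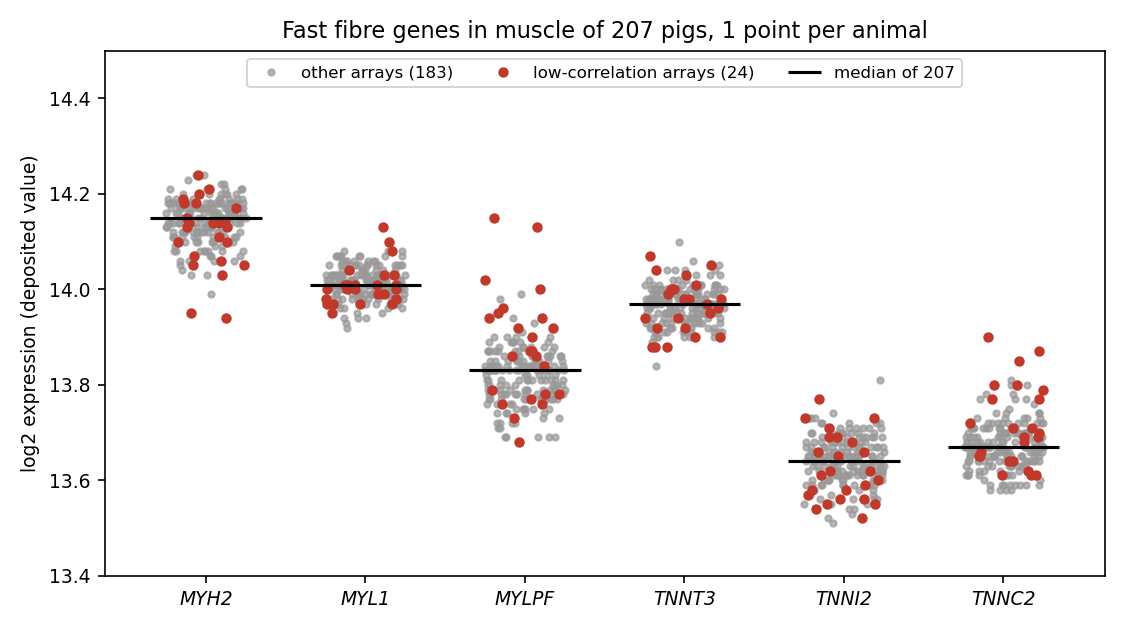
Deposited log2 expression (y axis) of the 6 measured fast fibre genes (x axis), 1 point per animal, with the median of 207 animals as a bar and the 24 low-correlation arrays in red. Each gene spans at most 0.47 log2 units, MYL1 spans 0.21, and the highest points of MYLPF and TNNC2 are mostly red.

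The shape of these distributions differed between members. MYH2 had a tail towards low values (skewness -0.91), from 13.94, while its upper quartile of 14.18 lay close to its highest value of 14.24. MYLPF (skewness 1.09) and TNNC2 (0.93) had tails towards high values instead. MYL1 (0.17), TNNT3 (0.07) and TNNI2 (-0.05) were nearly symmetrical. The tails lay partly on the low-correlation arrays: these held 7 of the 10 highest MYLPF values (13.94 to 14.15), 6 of the 10 highest TNNC2 values (13.78 to 13.90) and 5 of the 10 lowest MYH2 values (13.94 to 14.05). Mean MYLPF was 13.88 ± 0.119 (SD, n = 24) on those arrays and 13.82 ± 0.054 (SD) on all others. The TNNC2 means were 13.71 ± 0.086 and 13.67 ± 0.046, and the MYH2 means 14.12 ± 0.076 and 14.14 ± 0.043, over the same arrays. Blocks of title numbers accounted for 15.3% of the variance of MYH2, with block means from 14.10 to 14.18, and for 3.01 to 5.95% of that of the other members.

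The small spread of the members was shared by other very bright probe sets, but only in part. A member's place on the signal scale says nothing firm about its mRNA amount relative to another gene, since probe sets differ in how strongly they bind. Among the 1999 probe sets with a mean from 8 to 9 the median SD was 0.270, among the 65 with a mean from 13.0 to 13.5 it was 0.154, and among the 61 at 13.5 or above, where all 6 members lie, it was 0.083. The highest value in the table of tested probe sets was 15.32, between 1.08 and 1.51 log2 units above the highest value seen for any member on its own. Against the 100 probe sets nearest in mean, whose median SD was 0.119 to 0.120, 0 had a smaller SD than MYL1, 3 than TNNT3, 7 than MYH2, 8 than TNNI2, 12 than TNNC2 and 21 than MYLPF. Since the members ranked 3 to 46 in mean, most of these 100 were dimmer than the member, reaching below 13.5, where the spread is larger. Among the 61 at 13.5 or above the 10th percentile of SD was 0.049, and of the members only MYL1 and TNNT3 lay clearly below it. Whether the signals of these probe sets were saturated was not tested.

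The slow fibre genes that do the same jobs varied more. The SD of the slow gene was 7.08 times that of its fast counterpart for the alkali light chains (MYL3 at 0.236 against MYL1 at 0.033), 4.03 times for the inhibitory troponin subunits (TNNI1 against TNNI2) and 3.91 times for the tropomyosin-binding ones (TNNT1 against TNNT3). It was 3.45 times for the calcium-binding subunits (TNNC1 against TNNC2), 2.05 times for the heavy chains (MYH7 against MYH2) and 1.77 times for the regulatory light chains (MYL2 against MYLPF). Brightness was not matched in every pair: MYL3 had a mean of 12.80, where the 100 nearest probe sets had a median SD of 0.201, and MYL1 14.01, with 0.119. Slow genes of similar brightness are included: TNNT1, at a median of 13.72, ranged from 13.10 to 13.94 (SD 0.157), and TNNC1, at a median of 13.64, from 12.80 to 13.90 (SD 0.186, both n = 207). The low-correlation arrays held 8 of the 10 lowest TNNC1 values. Without those arrays the SD was 0.136 for TNNC1 against 0.046 for TNNC2, and 0.124 for TNNT1 against 0.038 for TNNT3. For MYL2 it was 0.091 against 0.054 for MYLPF. In each of the 6 pairs the fast gene was thus the steadier of the pair in these animals, as a description of these signals.

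**Figure D2:**
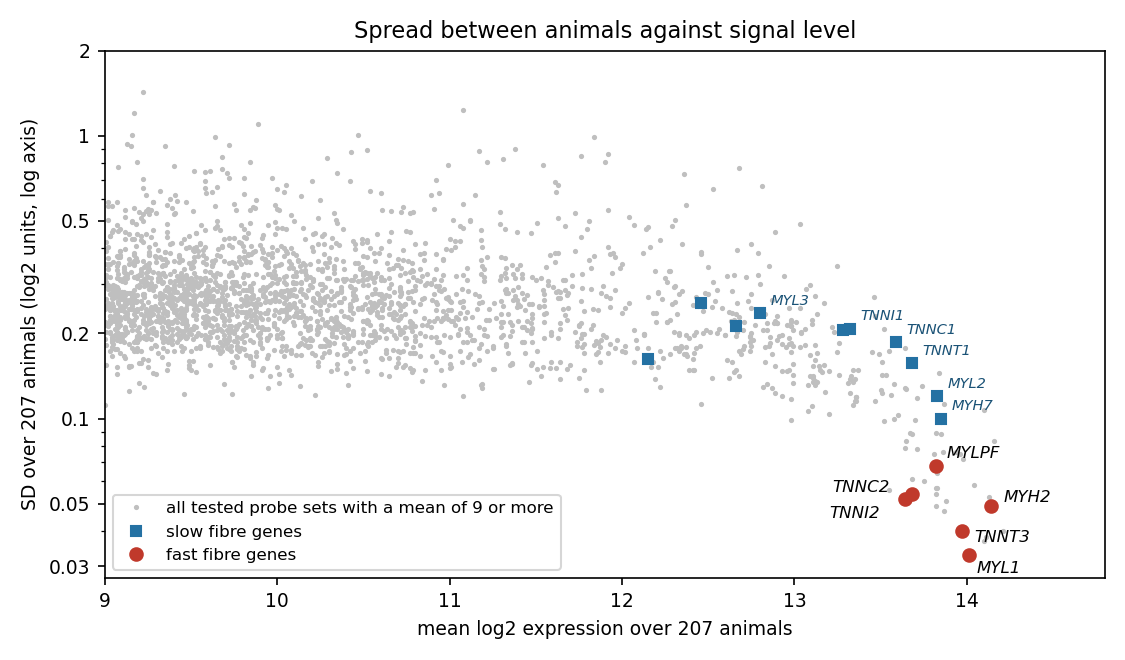
SD over 207 animals (y axis, log scale) against mean log2 expression (x axis) for all tested probe sets with a mean of 9 or more (grey), with fast fibre genes in red and slow fibre genes in blue. The spread narrows above about 13.5, and the 6 fast fibre genes, with SDs from 0.033 to 0.068, lie below the slow fibre genes at similar means.

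Small as it was, the variation over animals was partly shared between the member genes. On the deposited scale these genes are described below in groups, which were not tested. The light chain MYLPF and the troponin subunits TNNC2, TNNT3 and TNNI2 moved together, MYL1 was tied most to TNNI2 and MYH2, and MYH2 was the least related to the rest. Among the 15 pairs Pearson's r ran from 0.024 to 0.809 with a median of 0.362, and all 15 were positive on the deposited scale, but 5 of them turned negative after quantile normalization, where the median r was 0.168. In 13 of 15 pairs both r and Spearman's rho passed the permutation test (100000 permutations, two-sided, Benjamini-Hochberg adjusted p under 0.05 over the 15 pairs). The smallest p the permutations can give is 1e-05. The share of all other probe sets with a higher r to the first gene ran from 0% (MYLPF with TNNC2) to 45.8% (MYH2 with MYLPF). Among pairs that passed it was 15.6% for MYH2 with TNNT3 and with TNNI2, and 8.52% for MYL1 with MYLPF. Counted from the second gene, these shares were 4.3, 5.1 and 3.2%. With both genes centred within title blocks the 15 values ran from 0.019 to 0.808, and without the 2 animals farthest from the first gene's median from 0.070 to 0.778. In bulk muscle, fewer fibres of a type and less RNA per fibre cannot be told apart.

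The closest pair was MYLPF and TNNC2. Animals high in the one were high in the other, with r = 0.809 and rho = 0.772 (n = 207, permutation adjusted p = 1.9e-05 and 1.5e-05). Of all other 23934 probe sets, each was the most highly correlated with the other. Within each of the 10 title blocks r lay between 0.564 and 0.956. It was 0.778 without the 2 animals farthest from the MYLPF median, 0.749 without the low-correlation arrays and 0.634 after quantile normalization. Among the 10 animals highest in MYLPF and the 10 highest in TNNC2, 5 were the same.

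TNNT3 joined this pair. Its r with TNNC2 was 0.617 (rho 0.636) and with MYLPF 0.593 (rho 0.656), with a permutation adjusted p of 1.9e-05 for each r and positive values in 10 of 10 blocks. They were 0.689 and 0.684 without the low-correlation arrays, and smaller after quantile normalization, at 0.225 and 0.265. With TNNI2, its neighbour on chromosome 2, TNNT3 had r = 0.564 (rho 0.552, permutation adjusted p = 1.9e-05), with block values from 0.112 to 0.739 and 0.311 after quantile normalization. TNNI2 was also correlated with TNNC2 (r = 0.410, rho 0.483) and with MYLPF (r = 0.362, rho 0.472), each with adjusted p = 1.9e-05 by permutation. These 2 values were 0.539 and 0.422 after quantile normalization, and each was positive in 9 of 10 blocks. The troponin subunits of a fast fibre, encoded on 2 chromosomes, therefore varied in the same direction in each of their pairs under either scaling.

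The alkali light chain MYL1 showed r = 0.438 with TNNI2 (rho 0.444) and r = 0.423 with MYH2 (rho 0.428), both with a permutation adjusted p of 1.9e-05. After quantile normalization the value with TNNI2 was -0.105 and that with MYH2 was 0.228, so the direction of the former depended on the scaling. Its values with TNNT3 (0.285), TNNC2 (0.278) and MYLPF (0.223, permutation adjusted p = 0.002) were smaller. On quantile-normalized values they were 0.079, -0.305 and -0.197. MYL1 and MYLPF are light chains of the same myosin, and the direction of their relation depended on the scaling.

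MYH2 was only weakly related to the troponins, with r = 0.200 for both TNNT3 and TNNI2 (permutation adjusted p = 0.0043 each). For TNNC2, r was 0.061 (adjusted p = 0.41 by permutation) while rho was 0.177 (adjusted p = 0.012). For MYLPF, r was 0.024 and rho 0.129, with permutation p = 0.73 and 0.063, adjusted to the same values. Without the low-correlation arrays these r values were 0.196 and 0.146, and after quantile normalization -0.136 and -0.176. None of the 10 animals highest in MYH2 was among the 10 highest in MYLPF. The correlation of this heavy chain with the fast regulatory light chain thus passed by neither measure.

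**Figure D3:**
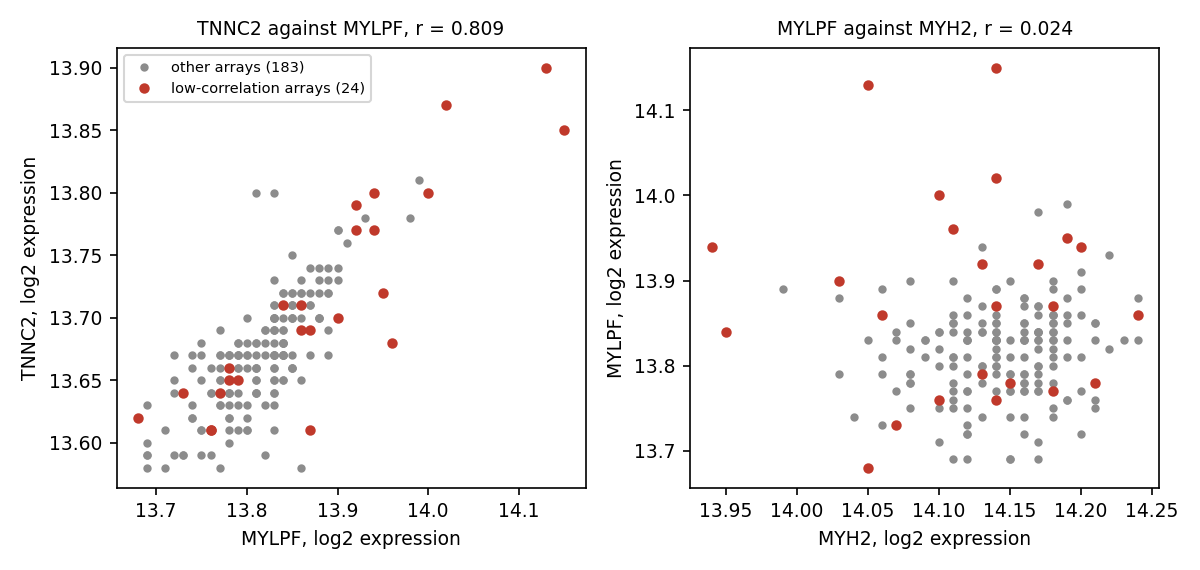
TNNC2 against MYLPF (left) and MYLPF against MYH2 (right), as deposited log2 values with 1 point per animal and the 24 low-correlation arrays in red. The left pair lines up (r = 0.809, and 0.634 after quantile normalization) and the right does not (r = 0.024, and -0.176 after quantile normalization).

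Properties of the arrays moved with the members to a moderate degree, and their part in the correlations above was not tested beyond the values given. The mean of the 50 brightest other probe sets was correlated with TNNI2 at r = 0.468 and with MYL1 at 0.341 (permutation adjusted p = 4.3e-05 each over 30 relations), and with TNNT3 at 0.239 (permutation adjusted p = 0.0016). For MYLPF and TNNC2 it gave r of -0.144 and -0.020 but rho of 0.251 and 0.315. With that mean held constant the pair MYLPF and TNNC2 kept r = 0.815, MYL1 and TNNI2 had 0.335 and the median over the 15 pairs was 0.335. The excess of 3' over 5' signal in the control transcripts, which reflects RNA integrity and labelling, was correlated with MYL1 at 0.333, with MYH2 at 0.257, with TNNC2 at 0.221 and with MYLPF at 0.173 (permutation adjusted p from 4.3e-05 to 0.025). The array median gave 0.257 with MYH2 but -0.259 with MYLPF, -0.230 with TNNC2 and -0.227 with TNNT3, each passing for r. The first principal component of expression gave 0.434 with MYH2 and 0.332 with MYL1. The median correlation of an array with the others was related to MYLPF at r = -0.368 and to TNNC2 at -0.347 (permutation adjusted p = 4.3e-05 each), and without the 24 low-correlation arrays at -0.108 and -0.121.

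Outside the set, the genes most like MYLPF and the troponins were CKM, PGAM2, PYGM, ENO3 and, for TNNI2, SLN. Likeness was Pearson's r over the 207 animals, among 6203 probe sets of other genes with a single symbol and a mean above the median, and is given as a description. CKM, the muscle creatine kinase that rebuilds ATP from creatine phosphate, came first for TNNT3 (r = 0.762), TNNC2 (0.715) and MYLPF (0.673), and came after SLN for TNNI2 (0.672). After quantile normalization those values were 0.459, 0.098, 0.274 and 0.244. PGAM2, the muscle phosphoglycerate mutase of glycolysis, reached 0.758 with TNNT3, 0.637 with TNNC2 and 0.590 with MYLPF, and 0.505, 0.621 and 0.435 after quantile normalization. ENO3, the muscle enolase, reached 0.701 with TNNT3 and 0.528 with TNNI2, and 0.364 and 0.336 after quantile normalization. The muscle glycogen phosphorylase PYGM reached 0.643 with MYLPF and 0.638 with TNNC2 by 1 of its 4 probe sets, and 0.474 and 0.723 after quantile normalization. A brighter probe set of PYGM gave 0.048 and -0.004. The dimmer ones gave -0.112 and -0.133 with MYLPF and -0.207 and -0.203 with TNNC2, so the probe sets of this gene disagreed.

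MYL1 and MYH2 had other nearest genes. MYL1 came closest to SLN, the sarcolipin that restrains the calcium pump (r = 0.577, and 0.309 after quantile normalization), to TPT1 (0.520, and 0.381) and to the interferon gamma receptor gene IFNGR1 (0.486, and 0.037 after quantile normalization). SLN was also first for TNNI2, at 0.703, and had 0.228 after quantile normalization. MYH2 came closest to the transcription factor gene SPIB (0.546), the cytosolic aconitase ACO1 (0.531) and the sialomucin CD164 (0.512), which had 0.316, 0.282 and 0.215 after quantile normalization. The lowest values were those of DNAJB6 (-0.471) and PHB2 (-0.440) with MYH2, and of EHMT2 with MYLPF (-0.610), TNNC2 (-0.588) and TNNT3 (-0.484). After these came RPLP1 with MYLPF (-0.588), SSTR5 with TNNC2 (-0.550) and GAL with TNNT3 (-0.451). After quantile normalization EHMT2 had -0.485, -0.536 and -0.156 in the same order, DNAJB6 -0.340, PHB2 -0.221, RPLP1 -0.314, SSTR5 -0.347 and GAL -0.315. MEAF6 (-0.424) and DIO3 (-0.415) were lowest for TNNI2, and were -0.019 and -0.064 after quantile normalization. For MYL1 the lowest were a probe set of GAPDH (-0.517) and DIO3 (-0.513), which became 0.028 and -0.045 after quantile normalization, while the brightest GAPDH probe set gave 0.262 with MYL1. For comparison, over all 23934 other probe sets the middle of the distribution, from the 5th to the 95th percentile, ran from -0.221 to 0.196 for MYLPF and from -0.225 to 0.312 for MYH2.

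The wider glycolytic and energy list, of which 15 of 17 genes were measured, divided by member. Counts are of genes whose r passed the permutation test adjusted over 432 relations between a member and a list gene. The share of all probe sets that would pass is not given, so these counts describe the lists only. Over all 23934 other probe sets the 5th to 95th percentiles of r were -0.225 to 0.312 for MYH2 and -0.226 to 0.259 for MYL1. They were -0.221 to 0.196 for MYLPF, -0.191 to 0.189 for TNNT3, -0.191 to 0.201 for TNNI2 and -0.231 to 0.212 for TNNC2. With MYH2, 8 of the 15 were positively correlated and 1 negatively, with LDHA, the lactate dehydrogenase of fast muscle, highest (r = 0.471) and PRKAG3 lowest (-0.207). With MYL1 the counts were 6 and 1, with TNNI2 6 and 0 and with TNNT3 5 and 0. MYLPF had 4 positive and 8 negative relations and TNNC2 had 4 and 7. The lowest of these was PGK1, a kinase of glycolysis, at -0.491 with MYLPF and -0.410 with TNNC2. Without the 2 animals farthest from the member's median these were -0.307 and -0.293. Of the 8 negative relations of MYLPF, 3 also passed by rho, and of the 7 of TNNC2, 1 did. Without the 24 low-correlation arrays the lowest r in this list was -0.173 for MYLPF and -0.179 for TNNC2, and LDHA moved from -0.264 to 0.092 with MYLPF. The positive relations of CKM and PGAM2 with MYLPF and TNNC2 did not shrink there, at 0.769 for CKM with MYLPF and 0.813 for PGAM2 with TNNC2. That of CKM with TNNT3 moved from 0.762 to 0.739.

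**Figure D4:**
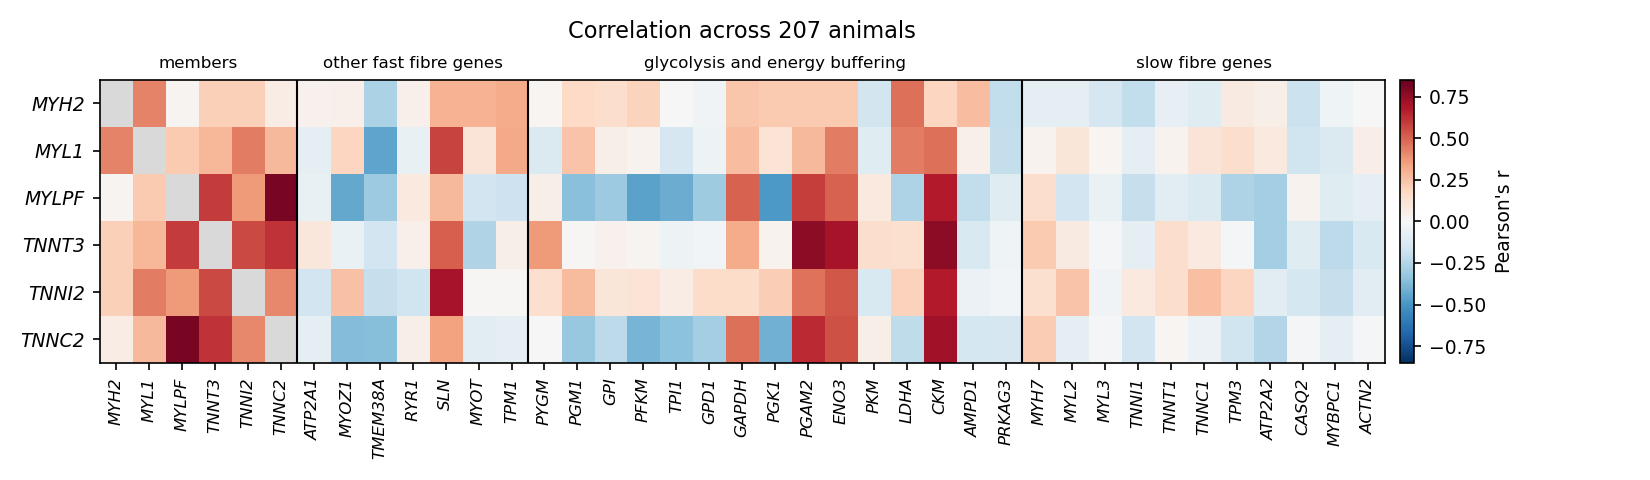
Pearson's r over 207 animals (colour) between each measured fast fibre gene (rows) and the genes of 4 lists (columns), with 1 probe set per gene. CKM, PGAM2 and ENO3 stand out in the rows of MYLPF and the troponins, and slow fibre genes stay between -0.291 and 0.254; 5 of the 15 member pairs turn negative after quantile normalization.

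Of 17 further fast fibre genes, covering calcium release and the Z disc, 7 were measured. On the deposited scale SLN was positively correlated with each of the 6 members, from r = 0.275 with MYLPF to 0.703 with TNNI2 (permutation adjusted p from 9.6e-05 to 7.4e-04). TPM1, an alpha tropomyosin, was correlated with MYH2 (0.316) and MYL1 (0.320). TMEM38A, a potassium channel of the sarcoplasmic reticulum, went the other way, at -0.450 with MYL1, -0.365 with TNNC2, -0.307 with MYLPF, -0.271 with MYH2 and -0.197 with TNNI2, each passing for r and all but the last for rho. Without the low-correlation arrays these were -0.423, -0.198, -0.103, -0.353 and -0.206. The Z disc gene MYOT gave 0.294 with MYH2 and -0.255 with TNNT3 (-0.132 without those arrays), so that each member had at least 1 negative call in this list. The fast calcium pump ATP2A1 passed with none of the 6, with r from -0.161 to 0.099. The calcium release channel RYR1 gave -0.169 with TNNI2 (permutation adjusted p = 0.046) and between -0.065 and 0.086 with the other members. MYOZ1, a fast Z disc protein, gave -0.433 with MYLPF, but rho was -0.130 and r without the low-correlation arrays was -0.174. MYBPC2 and CASQ1 were not analysed here. Of the 14 listed regulators of the fast programme 5 were measured. With MYH2, 3 of them were positively correlated, from MYOD1 (0.178) to the calcineurin subunit gene PPP3CA (0.437). MYL1 had 1 positive call, PPP3CA (0.193), and 1 negative, SOX6 (-0.255). The other 4 members had 0 calls, with r from -0.147 to 0.131.

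No fast gene was related to its slow counterpart beyond the permutation threshold. Each fast gene and the slow gene of the same job had r between -0.162 (MYLPF with MYL2) and 0.149 (TNNT3 with TNNT1). The former turned to 0.205 without the low-correlation arrays, and its rho was 0.114. The other values were -0.084 for MYH2 and MYH7, 0.014 for MYL1 and MYL3, 0.083 for TNNI2 and TNNI1 and -0.047 for TNNC2 and TNNC1. The p-values were adjusted over 66 relations between a member and a slow fibre gene, for which 11 of 16 listed genes were measured. Over the whole slow list 5 of the 66 were positive and passed, and 9 were negative and passed. By rho as well, 4 of the 5 and 5 of the 9 did. The share of all probe sets that would pass is not given beside these counts. MYLPF lost 2 of its negative calls by rho: its r with TPM3 of -0.262 had a rho of -0.012 and became 0.070 without the low-correlation arrays, and that with TNNI1 of -0.195 had -0.051 and became 0.025. The heavy chain MYH7 was positively correlated with TNNT3 (r = 0.223, permutation adjusted p = 0.012) and TNNC2 (0.214, permutation adjusted p = 0.017). Without the low-correlation arrays these were 0.228 and 0.359. The r of MYH7 with MYLPF (0.150) and TNNI2 (0.137) did not pass. Their rho did, at 0.262 and 0.226 (permutation adjusted p = 0.0025 and 0.011), and r without those arrays was 0.323 and 0.193. TNNI2 was positively correlated with TNNC1 (0.254), MYL2 (0.242) and TPM3 (0.185), a slow tropomyosin, and negatively with MYBPC1 (-0.195), a slow myosin-binding protein. Without the low-correlation arrays these were 0.147, 0.137, 0.094 and -0.122, and TPM3 and MYBPC1 did not pass by rho (permutation adjusted p = 0.17 and 0.1). The slow calcium pump ATP2A2 was negatively correlated with TNNT3 (-0.291), MYLPF (-0.290) and TNNC2 (-0.251), and these were -0.255, -0.119 and -0.106 without the low-correlation arrays. The relation with TNNC2 did not pass by rho (-0.170, permutation adjusted p = 0.065). TNNI1 gave -0.208 with MYH2 (permutation adjusted p = 0.019), and -0.262 without those arrays.

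For MYL1 and MYH2, some markers of other cell types had r about as large in size as their highest with another member. The part of these markers in the patterns above was not tested. Of 45 listed markers of adipocytes, endothelium, matrix, blood, macrophages, lymphocytes, nerve and satellite cells, 30 were measured. Their counts are likewise given without the share of all probe sets that would pass. TNNT3 had 0 relations that passed the permutation test for r over the 432, with r from -0.141 to 0.153, and 0 that passed for both r and rho. MYL1 had the most, with 9 positive and 2 negative relations, from the endothelial receptor gene KDR (-0.440) to the macrophage receptor gene MRC1 (0.428). These values are about as large as those of MYL1 with TNNI2 (0.438) and MYH2 (0.423). MYH2 had 8 and 2, with the myogenic factor gene MYF5, a satellite cell marker, highest at 0.397. TNNI2 had 4 and 1, TNNC2 3 and 1, and MYLPF 2 and 3. The highest r of these members with a marker, 0.333, 0.320 and 0.279 in that order, lay below their highest with another member.

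No member passed the test for either trait. Each probe set was regressed on the trait with limma, and a slope, given with its SE, is the change in log2 expression for a trait 1 SD higher. For drip loss 0 of 6 members passed an adjusted p of 0.05 (limma, Benjamini-Hochberg over 23935 probe sets), a threshold that 4.61% of all probe sets passed. At an unadjusted p under 0.05, 1 of 6 members passed, against 19.3% of all probe sets. The 1 member was MYLPF, whose drip loss slope was -0.011 ± 0.0054 (n = 207, limma p = 0.0372, adjusted p = 0.221), or -0.77% per SD. Least squares without moderation, which uses each gene's own variance alone, also passed 0 of 6 after adjustment. By least squares the SE for MYLPF was 0.0047 (p = 0.017, adjusted p = 0.149). Without the 24 low-correlation arrays its slope was -0.0036 ± 0.0048 (limma adjusted p = 0.812). Those arrays held 7 of its 10 highest values, as given above. Drip loss itself was weakly correlated with array properties (n = 207, not tested). Its r was 0.132 with an array's median correlation with the others and -0.131 with the 3' over 5' excess. It was -0.166 with the first principal component, 0.109 with the mean of the 50 brightest probe sets and 0.048 with the array median. Their part in the drip loss slopes was not tested beyond the alternatives fitted.

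For the other members the drip loss slopes were -0.0064 ± 0.0046 for TNNC2, 0.0047 ± 0.0045 for TNNI2, -0.0034 ± 0.0043 for MYH2, -0.0024 ± 0.0036 for MYL1 and 0.002 ± 0.0039 for TNNT3. Their limma adjusted p-values ran from 0.468 for TNNC2 to 0.831 for TNNT3. The 95% intervals bound these slopes narrowly on the deposited scale, at -0.65 to 0.32% per SD for MYL1, -0.82 to 0.36% for MYH2, -0.39 to 0.68% for TNNT3 and -0.28 to 0.94% for TNNI2. These intervals draw on the variance of all probe sets, and by least squares the SE of MYL1 was 0.0023 in place of 0.0036. The median slope over the 6 members was -0.0029, beside 0.0023 over all probe sets, and 0.0017 over the 61 with a mean of 13.5 or more, of which 2 passed, both with a positive slope.

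For fat area 0 of 6 members passed in limma, where 0.121% of all probe sets did. None of the 6 had an unadjusted p under 0.05, against 7.07% of all probe sets. The slopes ran from -0.0013 ± 0.0045 for MYH2 to 0.0044 ± 0.0056 for MYLPF (n = 207 less 8), with limma adjusted p-values from 0.927 to 0.996. TNNT3 (-0.0011 ± 0.004), TNNC2 (-0.00085 ± 0.0048), TNNI2 (-0.00032 ± 0.0046) and MYL1 (0.0026 ± 0.0037) lay between. Their median was -0.00059, beside -0.0018 over all probe sets.

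The drip loss slope and the fat area slope of a member were compared in a fit with both traits. In limma 0 of 6 differences passed, where 0.347% of all probe sets did, and 0 of 6 had an unadjusted p under 0.05, against 12.6%. MYLPF had the largest difference, at -0.014 ± 0.0075 (n = 207 less 8, limma adjusted p = 0.419). The smallest was that of MYH2, at -0.0024 ± 0.0061 (limma adjusted p = 0.91).

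**Figure D5:**
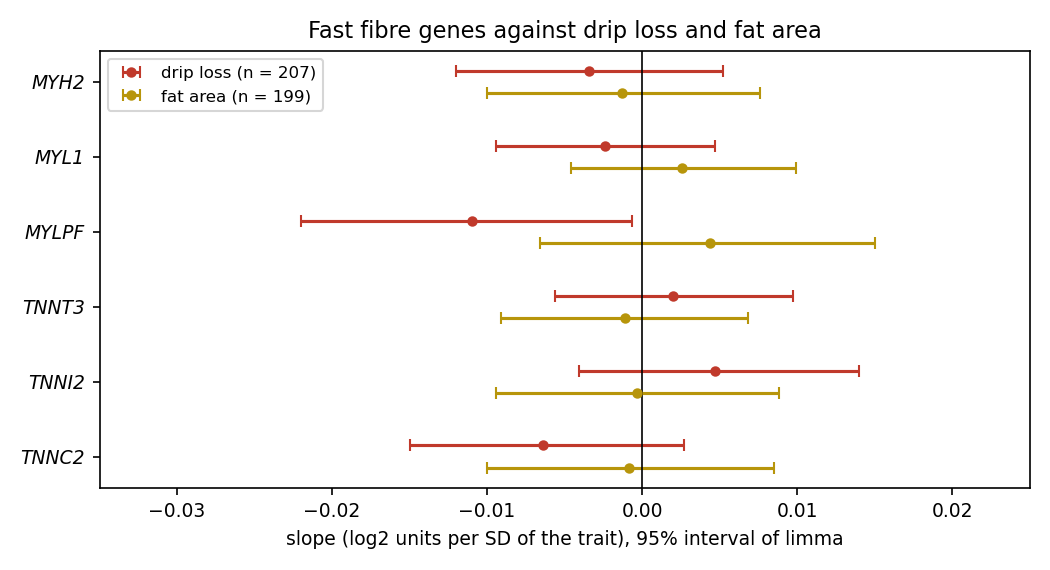
Slope of each measured fast fibre gene (y axis) on drip loss (red, n = 207) and fat area (gold, n = 207 less 8), in log2 units per SD of the trait (x axis), with 95% intervals from limma. Every interval includes 0 except that of MYLPF for drip loss, which passed only before adjustment and lay at -0.0036 without the low-correlation arrays.

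In the same limma fit for drip loss 4.61% of all probe sets passed, and no list was tested against that share. The related fast and slow fibre lists held 0 genes that passed, and the glycolytic, oxidative, cardiac and endothelial lists held 3, 2, 1 and 1. Of the 7 other fast fibre genes and the 5 regulators measured, 0 passed, with 4 and 1 at an unadjusted p under 0.05, against 19.3% of all probe sets. Among the named ones, ATP2A1 had a slope of 0.0084 ± 0.015, MYOZ1 0.012 ± 0.0058 and RYR1 -0.032 ± 0.013, with limma adjusted p-values of 0.821, 0.24 and 0.156. Of the 11 slow fibre genes 0 passed, and 0 had an unadjusted p under 0.05, against the same 19.3%. Their slopes included -0.0036 ± 0.0074 for MYH7, 0.0092 ± 0.0087 for MYL2, 0.019 ± 0.016 for MYL3 and 0.016 ± 0.015 for TNNI1. TNNC1 had 0.013 ± 0.013, TNNT1 0.0066 ± 0.011, TPM3 0.018 ± 0.011 and MYBPC1 0.0031 ± 0.018.

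In the glycolytic list 3 of 15 genes rose with drip loss, where 4.61% of all probe sets passed in either direction, and 6 of 15 had an unadjusted p under 0.05, against 19.3%. They were the glycolytic enzyme gene TPI1 (0.045 ± 0.014, limma adjusted p = 0.0435), GPD1 (0.042 ± 0.013, adjusted p = 0.0482) and PRKAG3, a regulatory subunit of AMP-activated kinase known for its effect on pig muscle glycogen (0.055 ± 0.017, adjusted p = 0.0419). PYGM, by its brightest probe set, had a slope of 0.007 ± 0.006 (limma adjusted p = 0.565). The cardiac troponin inhibitor TNNI3 rose by 0.094 ± 0.03 (limma adjusted p = 0.0437), 1 of 4 measured developmental and cardiac sarcomere genes. Of 11 oxidative genes 5 had an unadjusted p under 0.05, and SDHB (0.044 ± 0.014) and COX7A1 (0.066 ± 0.021) rose, with limma adjusted p-values of 0.0423 and 0.0478, and PPARGC1A had a slope of -0.27 ± 0.087 (adjusted p = 0.051). Among the markers of other cell types, ENG, 1 of 6 measured endothelial genes, fell by 0.068 ± 0.022 per SD (limma adjusted p = 0.047). The adjusted p-values that passed lay between 0.0419 and 0.0482, and slopes without the low-correlation arrays are not given for these genes. Drip loss was itself weakly correlated with array properties, as given above, and their part in these slopes was not tested. Means on those arrays and on all others were 13.23 and 13.56 for TPI1, 12.69 and 12.94 for GPD1, and 6.06 and 6.09 for PRKAG3. They were 6.85 and 7.30 for TNNI3, 11.89 and 12.17 for SDHB, 11.78 and 12.32 for COX7A1, and 6.76 and 6.42 for ENG. For fat area 0 genes of these lists passed in limma. At an unadjusted p under 0.05, which 7.07% of all probe sets had, there were 2 endothelial genes, 1 glycolytic gene and 1 regulator.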

How the data were processed

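Muscle RNA of 207 pigs was measured on Affymetrix Porcine Genome Arrays, 1 per animal. The submitters' processing notes name GCOS 1.1.1 and PLIER. Each deposited value is the log2 expression of a probe set, with a floor at 4.00 that holds 1.43% of the values, and the authors' scaling between arrays is not given in the sources used here. They were used as deposited, so folds refer to that scale. Precision is limited by the number of arrays.

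Of 24123 probe sets 188 controls were left out. The array annotation gave 10069 of the 23935 tested probe sets exactly 1 symbol, 198 several and 13668 none, and 6765 genes were named. Where a gene had several probe sets, the brightest stood for it, and each member had only 1. Slopes per SD of a trait came from limma 3.58.1 (lmFit, eBayes; R 4.3.3), two-sided, with Benjamini-Hochberg adjustment over all tested probe sets. Correlations were computed in Python 3.11.15 with numpy 2.4.6 and scipy 1.17.1 and tested with 100000 two-sided permutations, adjusted within each family (15, 30, 66 and 432 relations). The code was tested on simulated data.

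The members and gene lists were chosen with earlier results of these data known. Named were every member, 16 genes fixed by name, every list gene that passed for a trait and, for each member, the 3 most and 2 least correlated genes. Other list genes, given as the ends of a list, were named after their values were seen. The alternatives were quantile normalization, a filter on dim probe sets, covariates (title blocks, number series, principal components, control transcripts, the other trait), normal scores, sets of animals left out, eBayes with trend and robust, and rho in place of r. Subtraction of array medians, the mean of the 50 brightest probe sets as a covariate and least squares were added after seeing the data. Sequences were not used here.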

Additional observations from a re-analysis of the deposited data

How the results depend on the processing

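The count of members that passed in limma was 0 of 6 for drip loss, fat area and their difference under every alternative fitted. The smallest adjusted p of any member was 0.147 for drip loss (MYLPF, only probe sets with a mean above the median), 0.654 for fat area (MYL1, 5 principal components) and 0.322 for the difference (MYLPF, the same filter). The sign of a member's slope matched the main value in 94 of 96 alternative fits for drip loss, 89 of 96 for fat area and 87 of 90 for the difference (limma, no slope passed). In the higher number series alone the drip loss slope was 0.014 for MYH2 and 0.0072 for MYL1, the fat area slope 0.0062 for TNNT3, 0.0035 for TNNI2 and 0.0097 for TNNC2, and the difference 0.02 for MYH2 and 0.011 for MYL1. The fat area slope was also turned for MYH2 in the lower series (0.0004), for TNNI2 with 5 principal components (0.00091) or the other trait (9.8e-05) and for TNNC2 with 5 principal components (0.001), and the difference for MYH2 after quantile normalization (3e-05). The median r over the 15 member pairs, 0.362, was 0.168 after quantile normalization, 0.428 with Spearman's rho and 0.653 with each array's median subtracted, an alternative added after seeing the data. The cause was not tested. Under the other alternatives it lay between 0.316 and 0.389. Averaging a gene's probe sets gave the same values, since each member has 1. In the higher number series alone (33 animals) 13 of 15 pairs were positive, from -0.313 to 0.908, and with array medians subtracted all 15 were, from 0.370 to 0.886. No paired analysis was possible because all animals form 1 group. The 6 probe sets gave signals near the top of the scale, and log2 differences between animals were at most 0.47. Whether the former had a part in the latter was not tested, and differences this small limit what the probe sets can show.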
